A study of Oryza sativa with 2 samples.

Results

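The cellulose synthase superfamily of rice was examined in developing collars, the joints between leaf blade and leaf sheath, which were taken at the heading stage from wild type plants and from plants that carry an antisense OsLIC transgene. In the transgene the maize ubiquitin1 promoter drives a reversed copy of the full-length cDNA, and according to the labels the antisense collars came from line 2. Each RNA was pooled from 30 collars, with 1 collar per plant, of plants grown in the same field, and was hybridised to 1 GeneChip Rice Genome Array, so that there is 1 array per condition. Members were the genes whose symbol or synonym reads CesA and a number, or Csl with a letter A, C, D, E, F or H and a number. The gene table holds 35 such genes, and 29 of them had a probe set, out of 17905 genes with a probe set of their own. These 29 genes were read by 37 probe sets, out of 57194 without the controls. The other 6 genes, OsCslA3, OsCslA4, OsCslE6, OsCslF3, OsCslF4 and OsCslF9, had no probe set in the annotation used and were not analysed here. The targeted gene, OsLIC, had a signal of 219.8 in the collars labelled wild type. In those labelled antisense OsLIC it was 9.41-fold higher, at 2069. Whether this probe set reads the transcript of the transgene, and whether the labels are in order, was not tested, so every direction below holds between the labels of the arrays. In each pair of signals, the first is that of the wild type label and the second that of the antisense label.

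Cellulose synthases (CesA) sit in the plasma membrane as complexes that extrude the glucan chains of cellulose microfibrils. In rice, OsCesA4, OsCesA7 and OsCesA9 form the complex of the secondary wall, which is laid down in vessels and fibres once cells stop growing, and mutants in each of them have brittle culms. The other CesA genes are placed with the primary wall of growing cells. The cellulose synthase-like (Csl) families make other wall polysaccharides. CslA enzymes make mannans, CslC enzymes the glucan backbone of xyloglucan, and CslF and CslH enzymes the mixed-linkage glucan that is typical of grasses. CslD genes are known from tip-growing and dividing cells, and no product is assigned here to the CslE family. Wall synthesis in the collar bears on its shape, which sets the angle of the leaf.

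A signal of 100 on the brighter array was reached by 21 of the 29 genes, and the other 8 were dim on both arrays. All 9 CesA genes reached it, as did 12 of 20 Csl genes. None of the 21 genes differed by 2-fold or more between the arrays in either direction. Of the 14742 genes past this minimum on the whole array, 6.58% did, 3.73% with the higher and 2.85% with the lower signal under the antisense label. At the smaller limit of 1.5-fold, OsCesA7 and OsCesA5 were higher and OsCslC1 was lower under the antisense label, 3 of 21 members, beside 17.8% of all genes (9.29% higher and 8.55% lower). The members of signal 500 or more numbered 17, and none of them was past 2-fold either, where 4.17% of all genes of that signal were. The median log2 ratio of the 21 members, antisense label over wild type label, was 0.18, and that of all genes was -0.01. A single array stands for each condition, so the spread between plants is unknown, no test was made, and the precision of every ratio below is limited by the number of arrays.

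**Figure D1:**
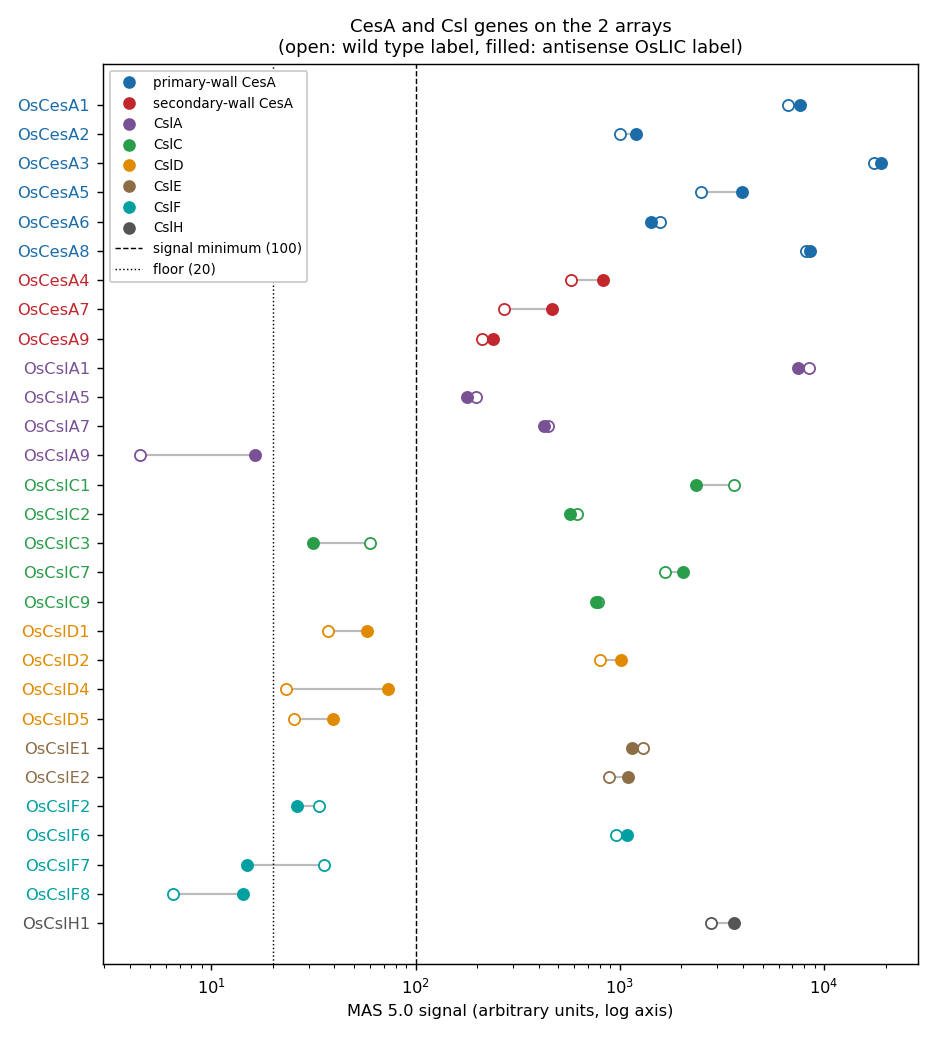
Signal of each of the 29 CesA and Csl genes by its brightest probe set, on a log axis in arbitrary units, with an open circle for the array labelled wild type and a filled circle for the array labelled antisense OsLIC. The dashed line is the signal minimum of 100 and the dotted line the floor of 20, and 8 genes of the CslA, CslC, CslD and CslF families lie left of the dashed line on both arrays.

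Of the genes of the primary wall, OsCesA1, OsCesA3 and OsCesA8 had close to equal signals on the 2 arrays. OsCesA3 had signals of 17599 and 19076 (log2 ratio 0.12). OsCesA8 had signals of 8134 and 8565 (log2 ratio 0.07), and OsCesA1 had signals of 6677 and 7665 (log2 ratio 0.20). These 3 genes are taken as the core subunits of the primary wall complex, and the highest and lowest of their log2 ratios, those of OsCesA1 and OsCesA8, were 0.125 apart. The second probe sets of OsCesA1 and OsCesA3 gave log2 ratios of 0.36 and 0.08.

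The remaining primary wall genes were less alike. OsCesA5 had signals of 2502 and 3964, 1.58-fold higher under the antisense label (log2 ratio 0.66), and 7.69% of all genes had a ratio as high or higher. OsCesA2 had signals of 1006 and 1203 (log2 ratio 0.26), and its second probe set was dim on both arrays, at 74.7 and 93.6. OsCesA6, with 1578 and 1426, was the 1 CesA gene with a lower signal under the antisense label (log2 ratio -0.15). OsCesA5 and OsCesA6 thus differed by 0.81 in their log2 ratios, the widest gap within the primary wall genes. The median over the 6 genes was 0.16, and 5 of the 6 ratios were above 0, which was so for 49.0% of all genes.

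All 3 genes of the secondary wall complex had a higher signal under the antisense label, beside 49.0% of all genes. None was past 2-fold, beside 6.58%. OsCesA7 had signals of 269.9 and 467.1, 1.73-fold higher (log2 ratio 0.79), the largest ratio among the 21 members, and 5.66% of all genes had a ratio as high or higher. OsCesA4 had signals of 575.1 and 825.0, 1.43-fold higher (log2 ratio 0.52). Its second probe set, designed from the same cDNA, had signals of 474.2 and 621.9 (log2 ratio 0.39). OsCesA9 had signals of 212.1 and 240.4, 1.13-fold higher (log2 ratio 0.18). The subunits of this complex are thought to work together, but their ratios were unequal, and OsCesA7 and OsCesA9 differed by 0.61 on the log2 scale. The median of the 3 genes was 0.52, which is 0.36 above that of the primary wall genes. This gap rests on 3 genes and 1 array per condition, and the ratios of the groups overlap, since OsCesA5 lies above OsCesA4 and OsCesA9 lies below OsCesA1.

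**Figure D2:**
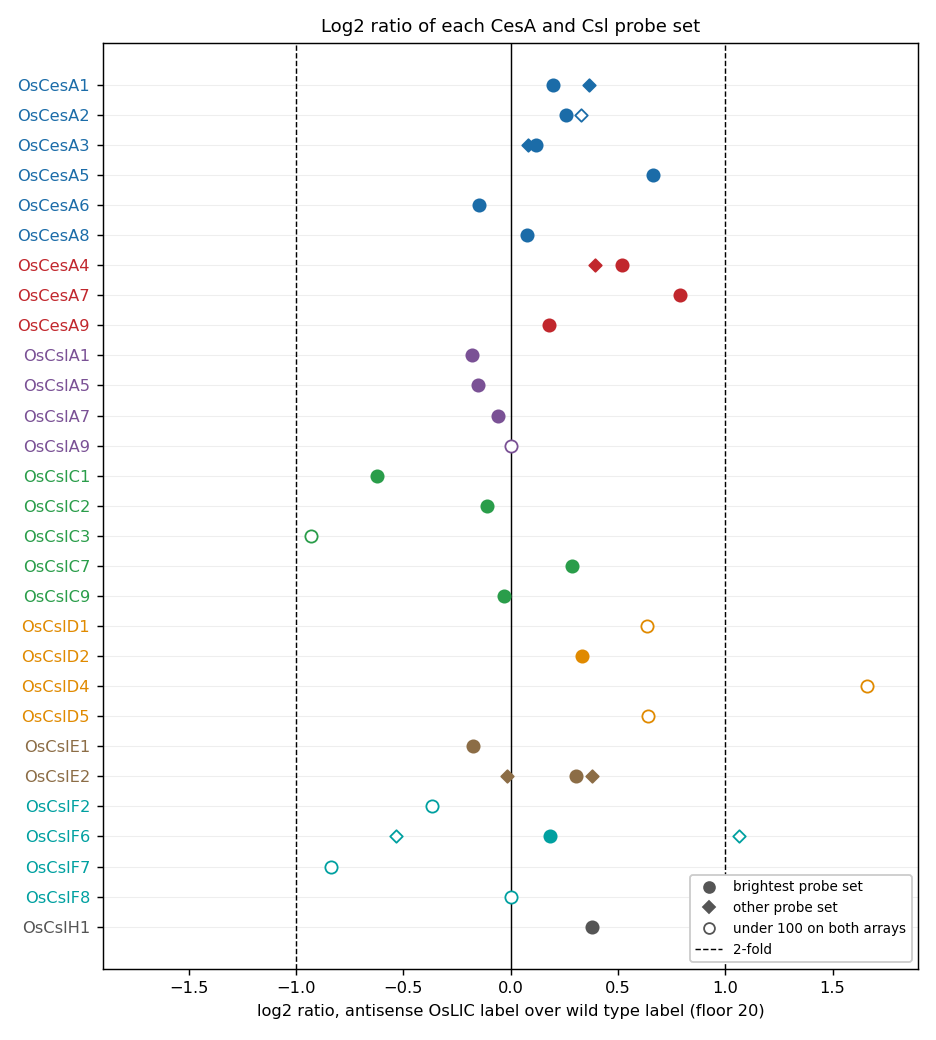
Log2 ratio (antisense label over wild type label) for all 37 probe sets of the 29 genes, with circles for the brightest probe set of a gene, diamonds for its other probe sets and open symbols for probe sets under 100 on both arrays. Dashed lines mark 2-fold, and the filled symbols all lie between them, from -0.62 for OsCslC1 to 0.79 for OsCesA7.

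The Csl genes past the minimum were split in sign, with 5 of 12 ratios above 0, beside 49.0% of all genes, and a median of -0.04. In the CslA family of mannan synthases, all 3 genes past the minimum were slightly lower under the antisense label. OsCslA1 had signals of 8418 and 7442 (log2 ratio -0.18), OsCslA5 had 197.7 and 177.9 (-0.15), and OsCslA7 had 444.4 and 427.2 (-0.06). The gene table gives the synonym OsCslA9 to OsCslA1 as well as to another gene, and that other gene, called OsCslA9 here, was under 20 on both arrays, at 4.47 and 16.4.

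In the CslC family, OsCslC1 had signals of 3627 and 2359, 1.54-fold lower under the antisense label (log2 ratio -0.62), the lowest ratio among the 21 members. Of all genes, 7.69% had a ratio as low or lower. OsCslC7 ran the other way, with 1672 and 2038 (log2 ratio 0.29), but its 1 probe set carries the suffix _x_at of probes that may also bind other transcripts. OsCslC2, at 617.7 and 572.0 (log2 ratio -0.11), and OsCslC9, at 778.4 and 761.8 (-0.03), were close to equal on the 2 arrays. OsCslC3 was dim, with 60.0 and 31.5. Between OsCslC7 and OsCslC1 the log2 ratios were 0.91 apart.

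In the CslD family only OsCslD2 was past the minimum, with signals of 803.4 and 1013 (log2 ratio 0.33). OsCslD1, required for root hairs in rice, had 37.2 and 57.9, OsCslD5 had 25.3 and 39.5, and OsCslD4, whose mutants have narrow leaves and short stature, had 23.1 and 73.0. The ratio of OsCslD4 was 3.16 (log2 ratio 1.66), the sole member ratio past 2-fold if dim genes are let in. It comes from an _x_at probe set that was under 100 on both arrays, and was 0.75 on the log2 scale with 50 added to both signals. Among genes dim on both arrays, 23.8% were past 2-fold. All 4 CslD genes had the higher signal under the antisense label, but 3 of them lie in the range where signals are least certain. The share of dim genes that were higher was not computed, so the family is read here through OsCslD2 alone.

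The CslE genes differed in sign. OsCslE1 had signals of 1302 and 1152 (log2 ratio -0.18). OsCslE2 had signals of 884.3 and 1094 (log2 ratio 0.31) by its brightest probe set, and its other probe sets gave 0.38 and -0.01. The last of these had nearly equal signals, 616.2 and 609.9, and the ratio of OsCslE2 spans 0.39 depending on the probe set.

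The genes of mixed-linkage glucan were read mainly through 2 members. OsCslF6 encodes the main synthase of this glucan in rice, and its brightest probe set had signals of 954.8 and 1086 (log2 ratio 0.19). The 2 other probe sets of OsCslF6 were dim and pointed in opposite directions, with 29.0 and 4.83 for one and 14.2 and 41.8 for the other. OsCslH1, whose counterpart in barley can make the same glucan, had signals of 2781 and 3622, 1.30-fold higher under the antisense label (log2 ratio 0.38). This was the highest ratio among the Csl genes past the minimum.

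The remaining CslF genes were dim. OsCslF2 had signals of 33.7 and 26.2, OsCslF7 had 35.8 and 14.9, and OsCslF8 had 6.46 and 14.4. OsCslF2 and OsCslF8 belong to a cluster on chromosome 7 that also holds OsCslF9, OsCslF4 and OsCslF3, with at most 2 other annotated genes between neighbours. Both cluster members with a probe set were under 50 on both arrays. OsCslF7 lies on chromosome 10, 9 annotated genes from OsCslH1, yet OsCslF7 was dim where OsCslH1 was past the minimum on both arrays. For OsCslA9 and OsCslF8, under 20 on both arrays, no ratio is given.

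**Figure D3:**
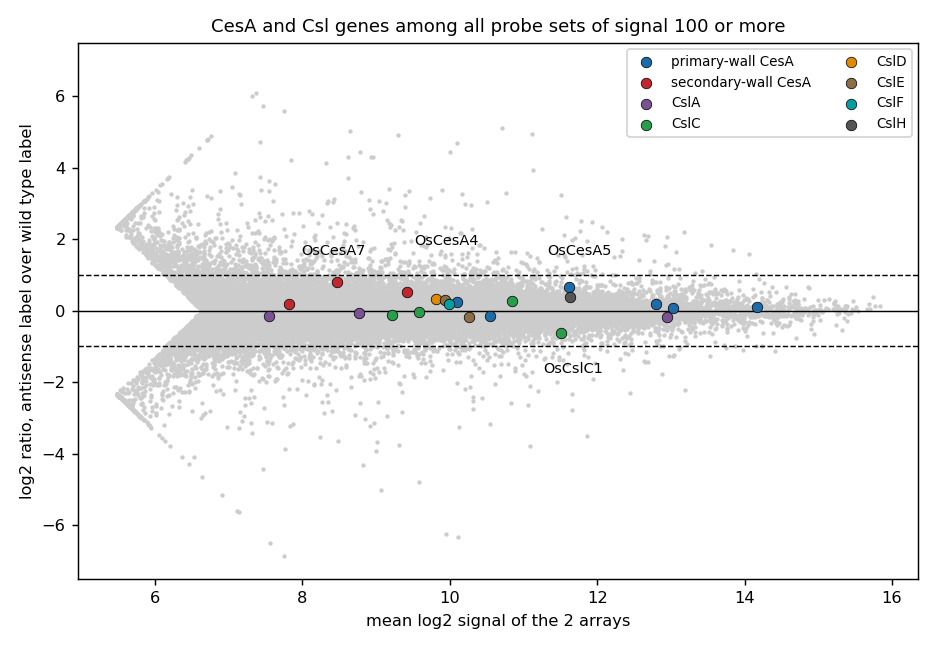
Log2 ratio (antisense label over wild type label) against the mean log2 signal of the 2 arrays, with grey points for all 26697 probe sets of signal 100 or more and coloured points for the 21 CesA and Csl genes past this minimum. Dashed lines mark 2-fold, and the members lie inside the grey band at low and at high signal alike.

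Probe sets of the same gene give a scale for ratios of this size. In 2166 genes, 2 or more probe sets were past the minimum, and the 2 brightest differed by a median of 0.23 in their log2 ratios, and in 10% of genes by more than 0.85. Of the 21 members, 9 had a ratio further from 0 than 0.23, and none had one further from 0 than 0.85. The shares of all genes past 0.23 and 0.85 were not computed, and without them the counts do not set the members apart. For scale, 23.0% of all genes were at or above the 0.26 of OsCesA2, and 30.4% at or below the -0.18 of OsCslA1. Past 1.5-fold either way were 17.8% of all genes, and past 2-fold 6.58%. For the members with several probe sets past the minimum, the ratios spanned 0.16 in OsCesA1, 0.04 in OsCesA3, 0.13 in OsCesA4 and 0.39 in OsCslE2. The span of OsCslE2 is over 3 probe sets, unlike the median above, and its 2 brightest gave 0.31 and 0.38. This is a spread between probes on the same 2 arrays and says nothing of the spread between plants.

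Other genes of wall synthesis were read beside the members. Of 3 COBRA-like genes past the minimum, all had a higher signal under the antisense label, beside 49.0% of all genes. At least 2-fold higher was 1 of them, beside 3.73% of all genes. OsBC1, which is needed for cellulose deposition in secondary walls, had 365.3 and 463.9 (log2 ratio 0.34). BC1L9 had 1356 and 1614 (0.25), and its second probe set had 434.0 and 459.3 (0.08). BC1L6 had 103.2 and 215.6, 2.09-fold higher (log2 ratio 1.06, and 0.79 with 50 added to both signals). The pattern also took in a bHLH factor gene that shares the synonym BC1, at 10.2 and 70.9, and it was not counted as past the minimum.

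Of 6 genes past the minimum that supply or accompany cellulose synthesis, 1, OsSUS3, was at least 2-fold higher, beside 3.73% of all genes. OsSUS3, a sucrose synthase of the family that makes UDP-glucose, had low signals of 68.3 and 137.7, 2.02-fold higher (log2 ratio 1.01, and 0.67 with 50 added). The brighter OsSUS2 had 18122 and 17579 (log2 ratio -0.04), and OsSUS4 had 1358 and 1877 (0.47). The endoglucanase gene OsGLU1, of the membrane-bound class that accompanies cellulose synthase, was equal on both arrays, at 1719 and 1721, and OsGLU2 had 10732 and 12223 (0.19). Of 7 xylan synthesis genes of the GT43 family, 5 had a ratio above 0, beside 49.0% of all genes. None was past 2-fold, beside 6.58%. OsIRX14 had 2093 and 2869 (log2 ratio 0.46), IRX9L had 1395 and 1637 (0.23), and the median was 0.15. The probe sets of OsIRX14 and IRX9L carry the suffixes _s_at and _x_at of probes that may also bind other transcripts. OsIRX9, by a probe set without such a suffix, had 1800 and 1592 (-0.18). OsXTH8, listed as OsXRT5 and named for xyloglucan endotransglucosylase/hydrolases, which cut and rejoin xyloglucan, had 1166 and 1819 (0.64). No gene was matched for the lists of secondary wall regulators and callose synthases.

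**Figure D4:**
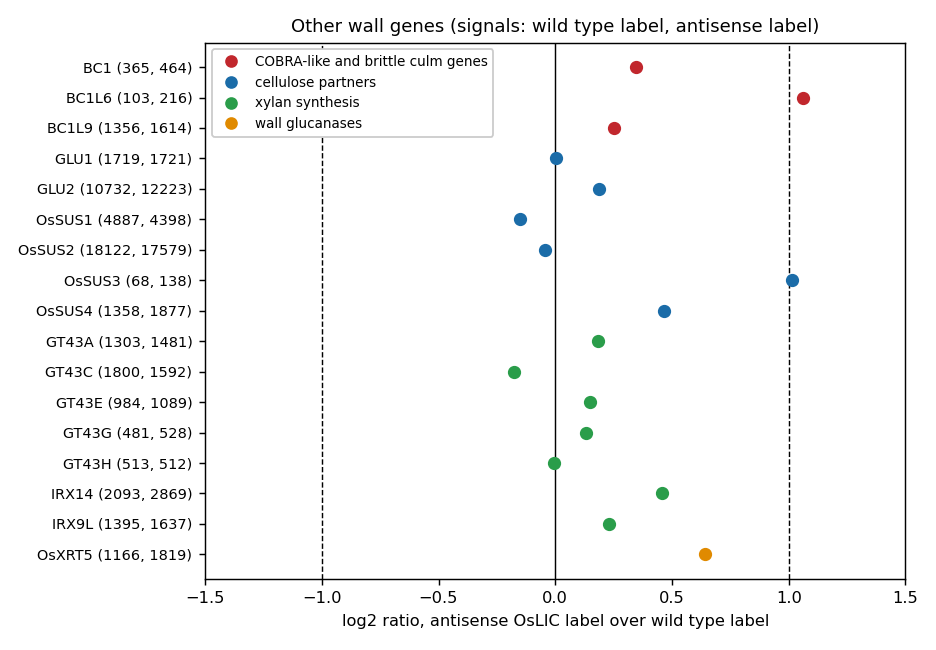
Log2 ratio (antisense label over wild type label) of the 17 other wall genes of signal 100 or more, each named with its 2 signals, in the groups described in the text. Dashed lines mark 2-fold, and BC1L6 and OsSUS3, both of low signal under the wild type label, lie just past it.

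The makeup of the collars was read from marker genes, and its part in the ratios above was not tested. OsLG1, required for the collar and ligule, had signals of 493.5 and 641.3. Of 3 markers of lignifying xylem with a probe set, where secondary walls are also made, 2 were past the minimum. Neither of these was past 2-fold, beside 6.58% of all genes. CAD2 had 4261 and 3223 (log2 ratio -0.40), and 4CL3 had 2677 and 2787. CCR1 was dim, with 31.9 and 16.03. The summed signal of this list was 6970 and 6026, a difference that CAD2 carries. Of the 2 members past the minimum 1 had a ratio above 0, beside 49.0% of all genes. Of 12 genes of dividing cells past the minimum, 7 had a ratio above 0, beside 49.0% of all genes. At least 2-fold higher was 1, CYCB1-1 with 48.5 and 108.8, beside 3.73% of all genes. CYCD5-2 had 721.8 and 702.3 by its brightest probe set, but 118.7 and 6.81 by another. The sum over the 18 genes of this list with a probe set was 5298 and 5430. The list of floral MADS-box genes matched 13 genes, and 4 were past the minimum, 1 of them OsMADS18, taken in by a synonym. Of these 4, 1 had a ratio above 0, OsMADS16 with 1001 and 1179 (log2 ratio 0.24), beside 49.0% of all genes. At least 2-fold lower was 1, OsMADS2 with 155.1 and 30.5, beside 2.85% of all genes. The sum of this list was 11327 and 7571, most of it from OsMADS18, which shares the synonym MADS2 and is also expressed outside flowers. Of the genes of photosynthetic tissue, CAB2R had 25685 and 12844, just short of 2-fold lower, and its second probe set was 2.34-fold lower. By their brightest probe sets, 2.85% of all genes were at least 2-fold lower. The probe sets of OsrbcS disagreed, with 14897 and 25699 by the brightest, which carries the suffix _x_at, 768.6 and 1168 by another, and 3933 and 2997 by a further _x_at probe set. The last probe set of OsrbcS was under 20 on both arrays, and RBCS1 was dim, with 2.42 and 28.4. As a sign of RNA quality, the 3′ to 5′ ratio of control pairs was 5.85 and 5.43 for actin, 0.395 and 0.277 for elongation factor ef1a, and 2.20 and 2.30 for cyclophilin. Of the pairs for glyceraldehyde-3-phosphate dehydrogenase, one had 4.61 and 18.0 and the other 1.49 and 1.62.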

How the data were processed

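The authors deposited 1 intensity per probe set and array, computed with the GeneChip Operating Software (GCOS, version not given in the sources used here), with all arrays brought to a common overall intensity of 500. These intensities are linear, and no other normalization was applied to them. Signals below 20 were raised to 20, and log2 ratios were taken as antisense label over wild type label. A gene was represented by the brightest of its probe sets that reached 100 on the brighter array. Of 57381 probe sets, 187 controls were left out. The annotation names 1 gene for 22436 probe sets and several genes for 95, it does not list 34850, and gene names came from the RefSeq gene table through the gene identifier. Detection calls were not used. A difference was counted from 2-fold, the limit of the study, and no test was made with 1 array per condition. Every member was named, and of the other wall lists those past 2-fold and up to 3 with the largest ratio. OsSUS2, OsGLU1, OsIRX9 and the marker genes are exceptions, chosen with their values in view. The members and lists were chosen with earlier results of these data known. Alternatives were median centring, quantile normalization, loess with a fraction of 0.4, a pseudocount or floor of 50, other signal minimums and thresholds, and other choices of probe set. The code was tested on simulated data and run with Python 3.11.15, numpy 2.4.6, pandas 2.3.3 and statsmodels 0.14.6.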

Additional observations from a re-analysis of the deposited data

How the results depend on the processing

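No paired analysis was possible because each condition has 1 array. The count of members past 2-fold was 0 in all settings at that threshold but one. It was 1, OsCslD4, with no signal minimum, since dim genes are then let in. At a 1.5-fold threshold it was 3, and at 3-fold it was 0. Over 10 alternatives, the median log2 ratio ran from 0.12 to 0.19 for the superfamily, from 0.15 to 0.18 for the primary wall genes and from 0.46 to 0.55 for the secondary wall genes, of which OsCesA4 alone, 1 gene, was left at a signal minimum of 500. The median of the Csl genes ran from -0.06 to 0.08 and was above 0 at a signal minimum of 500, where 10 genes remained. None of the 204 single-gene ratios under these alternatives, over 21 genes, moved by 1.5-fold or more or changed sign. Many of them could not move. A floor of 50, the other signal minimums and leaving out probe sets that may bind other transcripts kept every remaining ratio at its main value. Only the normalizations, the pseudocount and the mean over probe sets could move a ratio, the last only in genes with several probe sets past the minimum. OsCesA7 ran from 0.69 with a pseudocount of 50 to 0.82 with loess, and OsCslC1 from -0.63 to -0.61.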
